A study of Mus musculus with 5 samples.

Results

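The mitochondrial ribosomal protein genes are the nuclear genes, named Mrpl for the large and Mrps for the small subunit, that encode the protein part of the ribosome inside mitochondria. They were taken as all array probes, control spots apart, whose gene name starts with Mrpl or Mrps followed by a number, with 1 probe kept per gene, the one with the highest mean signal. This gave 75 genes on 95 probes, 46 of the large and 29 of the small subunit, of 25918 genes tested in all. All 75 passed the filter on dim probes, which asks for a signal clear of the background on 2 or more arrays of either group.

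The cells were MIN6, a line from a mouse insulin-producing tumour that still secretes insulin and serves as a model of the beta cell. Every culture received exosomes, small vesicles released by cells, collected by ultracentrifugation from the medium of dissected mouse muscle. In the EXO-STD group (2 samples, titled control) the muscle donors had eaten a standard diet, and in the EXO-HP group (3 samples, titled treated) a high fat diet. Strain, age, sex, muscle, vesicle dose and exposure time were not given in the sources used here, and no sample without vesicles was analysed here. The titles speak of biological replicates but do not say that cultures or vesicle preparations were separate, so the p-values below measure only the spread between these samples, part of which may be technical.

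Mitochondrial ribosomes translate the few proteins that mitochondrial DNA encodes, all of them subunits of the respiratory chain and ATP synthase, on which glucose-driven ATP production and insulin secretion in beta cells depend. About their ribosomal RNAs sit proteins with bacterial counterparts and others found only in mitochondria. All of these proteins are made in the cytosol from nuclear genes and imported, and the promoters of such genes often carry sites for GABP (an ETS factor), NRF1 and YY1.

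RNA of each sample was hybridised to 1 Agilent 1-colour array. The levels below are log2 signals minus the array's 75th percentile, so that 0 is that percentile. Of the spots, 71.75% to 91.56% were well above background and 0 were saturated, and EXO-HP 2 had the highest share. EXO-STD 1, EXO-STD 2 and EXO-HP 1 were on slide 1, and EXO-HP 2 and EXO-HP 3 on slide 2. The beta cell label was checked on 10 markers, all of which passed the filter on dim probes. Their median log2 signal before scaling was 15.58, against 9.01 over all genes, and the dimmest stood at 8.17. Ins2, an insulin gene, stood at 7.40 and 7.39 on the EXO-STD arrays and at 7.73, 7.68 and 7.74 on the EXO-HP arrays. Of the 10 markers 8 were higher in EXO-HP and 2 lower (median 0.19), where 16165 of all 25918 genes were higher. Median scaling turned this to 5 higher and 5 lower (median 0.02).

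None of the 75 genes passed the test between EXO-HP and EXO-STD. In limma's moderated test over 31943 probes with Benjamini-Hochberg adjustment, 0 members had an adjusted p under 0.05 and their smallest adjusted p was 0.923 (Mrpl19). The background was the same, with 0 probes (0%) called. At an unadjusted p under 0.05, limma gave 0 members against 1517 of all genes, 5.85%. The members' median difference, EXO-HP minus EXO-STD, was -0.04 on the log2 scale, with 30 genes higher and 45 lower, while the median over all genes was 0.07, with 16165 higher and 9753 lower. All genes were dimmer than the members, with a median log2 signal of 9.01 against 13.19. Of 3181 other genes of like brightness, in the band defined below, 6 had an unadjusted limma p under 0.05. The median difference of these 3181 was -0.01, with 1459 higher and 1722 lower, near that of the members. Among the 74 members measured in both groups, single differences ran from -0.50 (Mrps14) to 0.30 (Mrpl43), and the median standard error of a member was 0.30. The remaining member, Mrpl21, was not well above background on the EXO-STD arrays. Arrays were also simulated, with variances drawn from the distribution that limma fitted over all probes and 200 changed probes in each set. There the test recovered 0.4% of 2-fold and 29.2% of 4-fold changes. The members' own spread was not used, and their median SD within groups was 0.36, against 0.30 for all genes. A change of 2-fold in a single member would thus seldom have been called.

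The arrays of 1 group differed more than the groups did. Taken as each gene's signal minus its own EXO-STD mean, the family's median was 0.28 on EXO-STD 1 and -0.28 on EXO-STD 2. It was -0.27 on EXO-HP 1, 0.31 on EXO-HP 2 and -0.18 on EXO-HP 3. The group ranges thus overlapped, with EXO-STD 1 and EXO-HP 2 high and the remaining arrays low, and the SD of the family median within groups was 0.34, against the difference of -0.04 between them. EXO-STD 1 exceeded EXO-STD 2 in 66 of the 75 genes (88%), by a median of 0.55, where 50.2% of all genes did. EXO-HP 2 exceeded both EXO-HP 1 and EXO-HP 3 in 65 genes (86.67%), by medians of 0.56 (the former) and 0.54 (the latter), where 50% of all genes did. These counts describe single arrays and carry no test, since 1 array has no replicate.

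**Figure D1:**
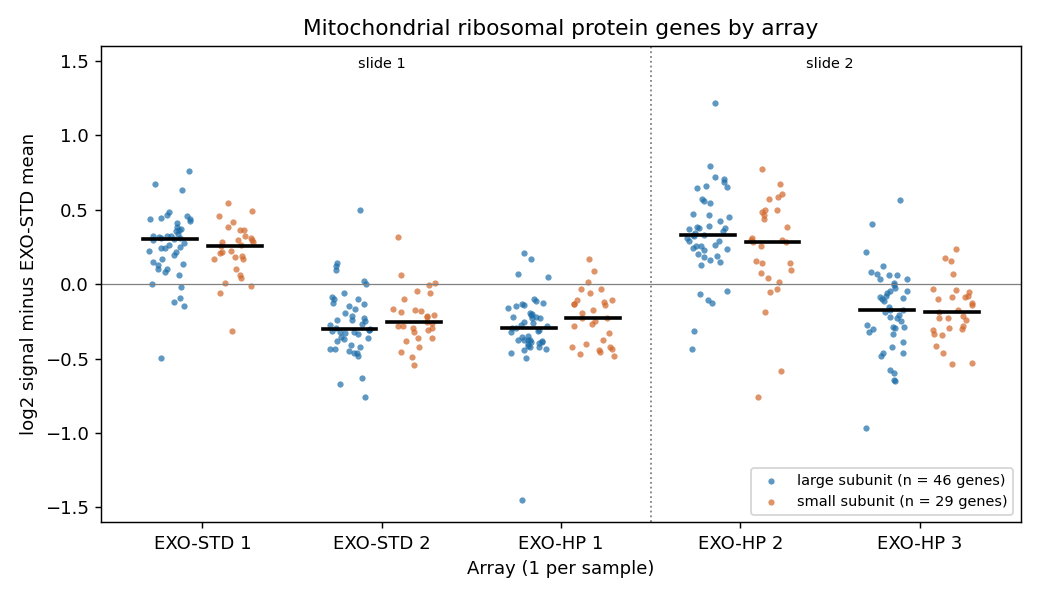
Signal of each gene on each array minus its EXO-STD mean, on the log2 scale; a point is a gene, a black bar the subunit's median, and the dotted line divides the slides. Both subunits stand high on EXO-STD 1 (0.30 large, 0.26 small) and EXO-HP 2 (0.33 large, 0.28 small) and low on EXO-STD 2, EXO-HP 1 and EXO-HP 3, so the groups overlap.

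The direction of the family's median difference followed the arrays that entered. Without EXO-STD 1 it was 0.20, with 62 genes higher and 13 lower, and without EXO-STD 2 it was -0.32, with 6 higher and 69 lower. Without EXO-HP 1, EXO-HP 2 or EXO-HP 3 it was 0.09, -0.23 and 0.02 in turn. Within slide 1, where EXO-HP 1 alone stood against both EXO-STD arrays, it was -0.27, with 7 genes higher and 68 lower. Slide 2 held EXO-HP arrays only and gives no value. Scaling each array by its median in place of the 75th percentile moved the median of all genes from 0.07 to -0.10 and the members' split to 3 higher and 72 lower, with a median of -0.21. On that scale EXO-HP 2 stood at 0.05, still above EXO-HP 1 (-0.39) and EXO-HP 3 (-0.32). In each of these fits 0 members had an adjusted p under 0.05.

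**Figure D2:**
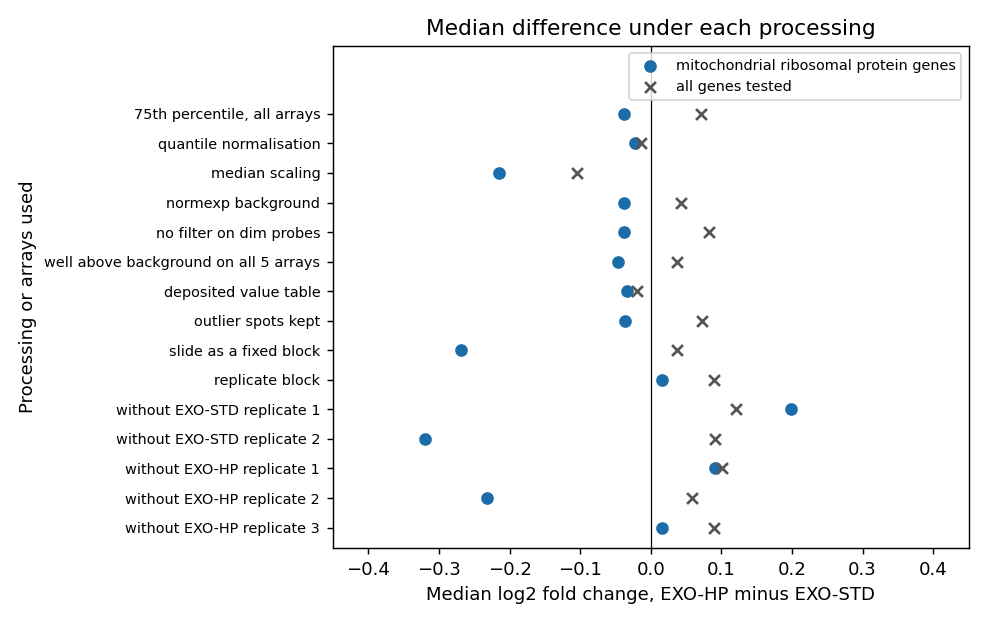
Median log2 difference, EXO-HP minus EXO-STD, of the mitochondrial ribosomal protein genes (circles) and of all genes tested (crosses) for each way of processing and each array left out. The members' median lies between -0.32 (without EXO-STD replicate 2) and 0.20 (without EXO-STD replicate 1), on both sides of 0.

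The subunits were high and low on the same arrays. The large subunit's median minus the small subunit's was 0.04 on EXO-STD 1 and -0.04 on EXO-STD 2. It was -0.07 on EXO-HP 1, 0.05 on EXO-HP 2 and 0.01 on EXO-HP 3. The groups overlapped, and the difference between them was -0.0031, against an SD of 0.06 within groups. Between EXO-HP and EXO-STD, 21 large subunit genes were higher and 25 lower (median -0.03), and 9 small subunit genes were higher and 20 lower (median -0.07). The small subunit's median turned to 0.03 with normexp background correction and with the authors' deposited values. By the structure of the ribosome, Mrps30 and Mrps18a belong to the large subunit in spite of their names, and Mrps36 is known as a subunit of the 2-oxoglutarate dehydrogenase complex. With these 3 placed so, 21 of 48 large and 9 of 26 small subunit genes were higher. Of the 47 members with a bacterial counterpart 17 were higher (median -0.07), and of the 27 found only in mitochondria 13 were higher (median -0.01).

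Several single genes show the pattern of the arrays most plainly. Mrps16, a small subunit protein with a bacterial counterpart, stood at 3.49 and 2.51 on EXO-STD 1 and 2, and at 2.56, 3.50 and 2.71 on EXO-HP 1, 2 and 3. Its EXO-STD arrays differed by 0.98, and its groups by -0.08 ± 0.42 (SE), with a 95% interval from -1.14 to 0.98. Of all members it was closest to the median of the others (Pearson r = 0.9992 over 5 arrays, a description of the pattern). Mrpl24 and Mrpl23, both large subunit proteins with bacterial counterparts, came next. Mrpl24 read 3.24 and 2.75, then 2.74, 3.23 and 2.84. Mrpl23 read 3.59 and 2.87, then 2.79, 3.68 and 2.96. In all 3 genes the EXO-STD values enclosed or nearly enclosed the EXO-HP values, with the same arrays high.

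In all, 47 of the 75 members (62.67%) had an r over 0.9 with the median of the other members, and 11.37% of all genes tested had one with the family's median. The 5 genes outside the family closest to its median were Ndufb2, a subunit of respiratory complex I, Ap2s1, a subunit of the AP2 clathrin adaptor, and Gm648, LOC100045540 and NAP068986-1, named here as the array names them. Ndufb2 stood at 4.0 and 2.75 on the EXO-STD arrays and at 2.80, 4.06 and 3.00 on the EXO-HP arrays. With 5 arrays, such a likeness rests on few points.

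The promoters of the members were searched for 3 motifs, those of the factors named above. Whether these factors had a part in the shared pattern over the arrays was not tested. RefSeq promoters (assembly GRCm38.p6, 250 bases before to 50 after the start) were matched for 66 of the 75 members, counting a gene once if any of its promoters held a motif on either strand. CCGGAAG, the ETS motif bound by GABP, was present in 24 of 66 (36.36%) and in 9.93% of all 27025 genes with a promoter. GCGCATGC, the NRF1 motif, was present in 8 (12.12%, against 3.05%). AAGATGGC, the YY1 motif, was present in 11 (16.67%, against 3.19%). Any of the 3 was present in 35 members (53.03%, against 14.89%). The 27025 genes were not limited to those tested on the arrays or to those of like brightness. The ETS and YY1 motifs can share the letters AAG, and the NRF1 motif can overlap its own reverse complement, as in Mrpl9. The 60 bases before the start are given here for 4 members that hold a motif and for 2 without one, 5′ to 3′ on the gene's strand, with the motif or its reverse complement in capitals.
Mrpl22, chr11:58171604-58171663, plus strand, ETS then NRF1: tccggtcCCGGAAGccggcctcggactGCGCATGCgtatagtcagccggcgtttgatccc
Mrpl43, chr19:45006443-45006502, minus strand, ETS at both ends: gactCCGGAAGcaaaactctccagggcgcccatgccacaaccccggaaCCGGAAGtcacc
Mrpl36, chr13:73330949-73331008, plus strand, YY1: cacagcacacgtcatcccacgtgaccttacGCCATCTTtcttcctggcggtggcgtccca
Mrpl9, chr3:94443276-94443335, plus strand, NRF1 overlapping itself: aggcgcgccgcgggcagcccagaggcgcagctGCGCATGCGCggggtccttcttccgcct
Mrpl12, chr11:120484577-120484636, plus strand, no motif in these bases: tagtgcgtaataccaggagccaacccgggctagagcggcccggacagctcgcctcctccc
Mrpl50, chr4:49521084-49521143, minus strand, no motif in these bases: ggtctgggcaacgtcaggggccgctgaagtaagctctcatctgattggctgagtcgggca

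The gap between EXO-STD 1 and EXO-STD 2 was alike in members with and without the ETS motif. In the 8 members with NRF1 and the 11 with YY1 it was smaller than in those without. The difference between EXO-STD 1 and EXO-STD 2 had a median of 0.60 in the 24 members with the ETS motif and 0.57 in those without it. With and without the NRF1 motif it was 0.38 and 0.60, and with and without the YY1 motif 0.53 and 0.60. Of the genes printed, Mrpl43, with a pair of ETS motifs, differed by 1.52 on its brighter and 0.47 on its other probe. Mrpl36, with YY1, differed by 1.27, Mrpl22, with ETS and NRF1, by 0.43 and Mrpl9, with NRF1, by 0.30. With no motif in the 60 bases, Mrpl12 differed by 1.34 and Mrpl50 by -0.29. These are values of 1 array against another, and a match is no measure of binding.

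Among large subunit proteins with a bacterial counterpart, Mrpl19 and Mrpl1 had the smallest p-values. Mrpl19 (probe at chr6:81911970-81912029, mm9) stood at -0.59 and -0.40 on the EXO-STD arrays and at -0.79, -0.93 and -1.14 on the EXO-HP arrays. The groups did not overlap, and the difference was -0.46 ± 0.21 (SE; 95% interval from -0.99 to 0.07; limma unadjusted p = 0.0768, adjusted p = 0.923). Mrpl1, a protein of the stalk beside the exit site for tRNA (probe at chr5:96667890-96667949), stood at -0.16 on both EXO-STD arrays and at -0.42, -0.48 and -0.74 on the EXO-HP arrays. Its groups did not overlap either, with a difference of -0.38 ± 0.20 (95% interval from -0.89 to 0.12; limma adjusted p = 0.956). Mrpl47, a protein near the tunnel through which the new chain leaves, also lay below both EXO-STD arrays (1.83 and 1.88) on all EXO-HP arrays (1.65, 1.78 and 1.55). Its second, dimmer probe gave 0.12 where the first gave -0.19. These 3 were the only members whose EXO-HP values all lay below the EXO-STD values, which 2.81% of all genes showed. In the members' brightness band, defined below, 120 of 3181 other genes did. Mrpl19 and Mrpl1 were dimmer than that band. Neither Mrpl19 nor Mrpl1 followed the family over the arrays (r = -0.09 and 0.14 with the other members' median).

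Mrps2, a small subunit protein with a bacterial counterpart, was the only member with all EXO-HP arrays above both EXO-STD arrays, which 15.1% of all genes showed. In the members' brightness band 116 of 3181 other genes did, so the share over all genes is no like measure for the family. The probe of Mrps2 itself was dimmer than that band. It stood at 0.57 and 0.56 on the EXO-STD arrays and at 0.59, 0.66 and 0.80 on the EXO-HP arrays. The difference was 0.12 ± 0.19 (95% interval from -0.36 to 0.59). With median scaling it was -0.06. The dimmer probe of the gene overlapped between the groups, at -1.77 and -2.19, then at -1.68, -1.73 and -1.92.

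Mrpl12, the large subunit protein of the stalk that recruits translation factors, which has also been reported to bind mitochondrial RNA polymerase, stood at 3.11 and 1.77 on the EXO-STD arrays. On the EXO-HP arrays it stood at 2.22, 2.83 and 1.80. The EXO-STD values enclosed all EXO-HP values, and the difference was -0.16 ± 0.50 (95% interval from -1.39 to 1.07). Mrpl36 had a like course, with 2.91 and 1.65 in EXO-STD and 1.97, 3.07 and 2.11 in EXO-HP. Mrpl32, whose maturation by the m-AAA protease is a step in ribosome assembly, differed by -0.30 ± 0.22, Mrpl17 by 0.12 and Mrpl2, a protein of the catalytic centre, by 0.10. The probe of Mrpl33, among the brightest of the family, gave -0.18 ± 0.39, and that of Mrpl20 gave -0.10 ± 0.43. Mrpl35, on a dim probe, gave -0.10 ± 0.28. All of these genes overlapped between the groups.

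Mrpl21 (probe at chr19:3292462-3292521, mm9) had the dimmest probe and passed the filter only through the EXO-HP arrays. It stood at -7.18 and -6.18 on the EXO-STD arrays, where it was not well above background, and at -6.47, -5.47 and -6.11 on the EXO-HP arrays, 2 of which measured it, and the groups overlapped. With this scaling alone, and against the lowest measurable signal of the EXO-STD arrays, its mean EXO-HP signal was 1.22-fold higher. This ratio is no lower limit on a change and no evidence of one. The gene passed the filter through EXO-HP only, and the EXO-HP mean includes an array that did not measure it. The fitted difference was 0.66 ± 0.43 (limma adjusted p = 0.9999). For this ratio each EXO-STD array was given its lowest signal well above background of any probe, or this probe's signal where that was higher, and these were averaged. The fitted difference fell to 0.03 with quantile normalisation, 0.08 with normexp correction and -0.02 in the authors' deposited values, with the sign turned in the last.

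Of the large subunit proteins found only in mitochondria, Mrpl45, which lies at the exit tunnel and contacts the inner membrane, had 1 array apart. It stood at 1.41 and 0.69 in EXO-STD and at -0.40, 1.25 and 0.95 in EXO-HP. EXO-HP 1 alone was low, and the difference of -0.45 ± 0.55 grew to -1.45 within slide 1. Mrpl51 stood at 4.46 and 3.64, then at 3.75, 4.20 and 3.08, a difference of -0.37 ± 0.42. Mrpl43, whose promoter holds the pair of ETS motifs shown above, had on its brighter probe the widest gap between the EXO-STD arrays, where its other probe had a gap of 0.47. On the brighter probe it stood at 3.66 and 2.14, then at 2.97, 3.62 and 3.02, and its difference of 0.30 ± 0.49 became 1.06 without EXO-STD 1 and -0.46 without EXO-STD 2. The other probe differed by -0.02 between the groups. The values of all 3 genes overlapped between the groups.

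In the small subunit the lowest difference was that of Mrps14, a protein of the head with a bacterial counterpart (probe at chr1:162129889-162129948, mm9). It stood at 2.08 and 1.17 on the EXO-STD arrays and at 1.17, 0.87 and 1.34 on the EXO-HP arrays. EXO-STD 1 alone was high. The difference was -0.50 ± 0.34 (95% interval from -1.33 to 0.34; limma unadjusted p = 0.191, adjusted p = 1.00). It was -0.04 without EXO-STD 1 and -0.96 without EXO-STD 2, and the dimmer probe of the gene gave -0.08. Mrps21 differed by -0.25 ± 0.38, Mrps22 by -0.21 ± 0.22, Mrps10 by 0.17 ± 0.36 and Mrps7, a protein with a bacterial counterpart, by 0.12 ± 0.22. Mrps23, found only in mitochondria, differed by 0.13 ± 0.22.

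Mrps31, a protein found only in mitochondria, ran against the family. It stood at 2.09 and 2.71 on the EXO-STD arrays and at 2.34, 1.81 and 2.16 on the EXO-HP arrays, so that it was lowest where the other members were highest (r = -0.81 with their median). Its groups overlapped, with a difference of -0.30 ± 0.29. Mrpl21, Mrps2, Mrps9, Mrpl19, Mrps5 and Mrpl50 were the other members with an r below 0, and 41.86% of all genes had one with the family's median. Mrps27, which carries pentatricopeptide repeats, an RNA-binding fold, stood at -1.28 and -1.61, then at -1.28, -0.84 and -1.38, a difference of 0.28 ± 0.25. The bright probe of Mrps26 gave -0.11 ± 0.27.

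The members that the names misplace behaved like the rest. Mrps30 stood at 1.59 and 0.82 in EXO-STD and at 0.94, 1.35 and 0.67 in EXO-HP, with a difference of -0.22 ± 0.33. Mrps18a, 1 of 3 homologues of a single bacterial protein, stood at 2.47 and 2.02, then at 2.00, 2.63 and 2.03, a difference of -0.03 ± 0.29. Mrps36 stood at 2.80 and 2.45, then at 2.50, 2.70 and 2.40, a difference of -0.09 ± 0.22. In each of the 3, EXO-STD 1 and EXO-HP 2 were the higher arrays of their groups and the groups overlapped.

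Mitochondrial ribosomal proteins that the name rule leaves out were read from a list of 7, of which 3 were higher and 4 lower (median -0.04, turned to 0.02 with quantile normalisation and 0.04 with normexp correction or the deposited values), with 0 called. Their median was 0.37 and -0.37 on the EXO-STD arrays and -0.21, 0.43 and -0.15 on the EXO-HP arrays, high on the same arrays as the family. Dap3, a GTP-binding protein of the small subunit also named for a role in cell death, stood at 3.51 and 3.40, then at 2.71, 4.22 and 3.84 (difference 0.13 ± 0.47). Gadd45gip1, a large subunit protein, differed by 0.27 ± 0.38, and Mrpl57 (Mrp63 on the array) by -0.07 ± 0.39. Mrpl58 (Ict1 on the array), a peptidyl-tRNA hydrolase built into the large subunit, differed by 0.05 ± 0.35. Chchd1 gave -0.13 ± 0.43 and Aurkaip1 -0.04 ± 0.19, both of the small subunit. Ptcd3, a small subunit protein with pentatricopeptide repeats, stood at 2.47 and 2.75, then at 2.58, 2.33 and 2.40 (difference -0.17 ± 0.21), low where the family was high. Aurkaip1, on a bright probe, ranged from 6.20 to 6.35. Mrpl42, listed on the array under an older name and in neither list, stood at 1.22 and 0.83, then at 0.77, 1.36 and 0.65 (difference -0.09 ± 0.29), high on the same arrays as the family.

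Measured by a second probe, the single differences were not steady in sign. Of 20 members with 2 probes, 10 had differences of opposite sign. The differences of the probes were apart by a median of 0.16 and at most by 0.42 (Mrps14). The pattern over the 5 arrays agreed in part, with a median r of 0.80 between the probes of a gene. In 7 genes that r was under 0.5, and in 6 of these 7 the dimmer probe had a mean log2 signal under 10. The 3 member probes printed 10 times (Mrpl34, Mrpl50 and Mrps35) had spot SDs of 0.042 to 0.16 on the log2 scale within an array, which is the spread of spots and not of samples.

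**Figure D3:**
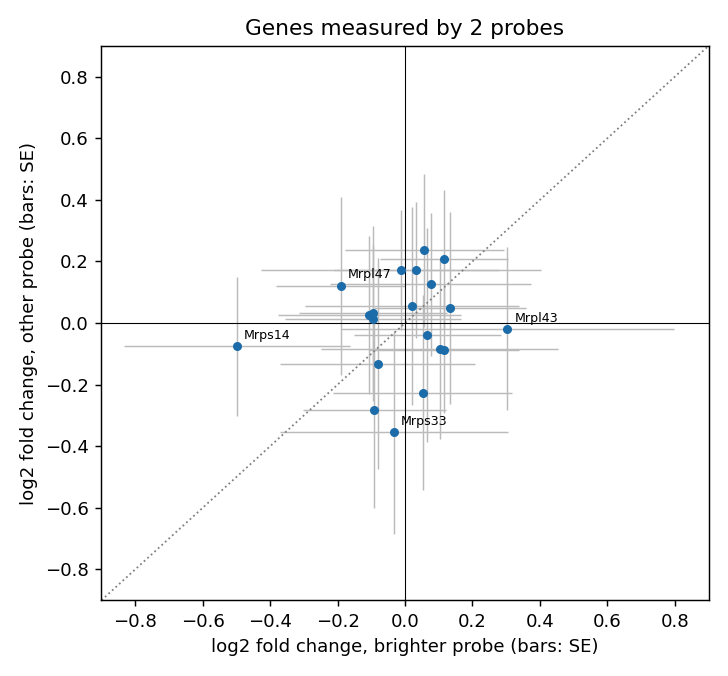
Log2 difference, EXO-HP minus EXO-STD, of the brighter (x axis) and the other probe (y axis) of the 20 members with 2 probes; bars are standard errors and the dotted line marks equal values. Points lie in all 4 quadrants, 10 pairs have opposite signs, and Mrps14, Mrpl43, Mrps33 and Mrpl47 lie farthest from the line.

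Cytosolic ribosomal proteins and respiratory chain subunits had the same course over the arrays. The cytosolic group was taken as the 92 genes whose names start with Rpl or Rps followed by a number. That rule does not exclude genes of other kinds whose names start so. Its median was 0.28 and -0.28 on the EXO-STD arrays and -0.27, 0.31 and -0.21 on the EXO-HP arrays. The median of 83 nuclear respiratory chain and ATP synthase genes was 0.36 and -0.36, then -0.29, 0.42 and -0.21. The pattern was thus shared by groups outside the mitochondrial ribosome. EXO-STD 1 exceeded EXO-STD 2 in 91.3% of the cytosolic and 96.39% of the respiratory genes, against 88% of the members. Between EXO-HP and EXO-STD, 29 of 92 and 31 of 83 were higher, with 0 called in either.

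Other genes of like brightness had smaller medians on the arrays. The 3181 other genes with a log2 signal between 12.24 and 13.98, a band chosen from the members after the values were seen, had a median of 0.04 and -0.04 on the EXO-STD arrays and -0.06, 0.04 and 0.0025 on the EXO-HP arrays. The median SD within groups was 0.36 for the members, 0.24 for that band and 0.30 for all genes. Over the 74 members measured on all arrays, Mrpl21 left out, the difference between EXO-STD 1 and EXO-STD 2 had an r of 0.34 with log2 signal. Over all genes tested, without that restriction, it was 0.20, so the 2 values are not on like sets. With log2 gene length the r over all 75 members was -0.36 and with the GC content of the probe 0.04, and over other genes -0.18 and 0.09. The members were short genes, with a median length of 7632 bases against 18045 for the others. These correlations are over genes, which share the arrays, and describe the 2 arrays only.

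**Figure D4:**
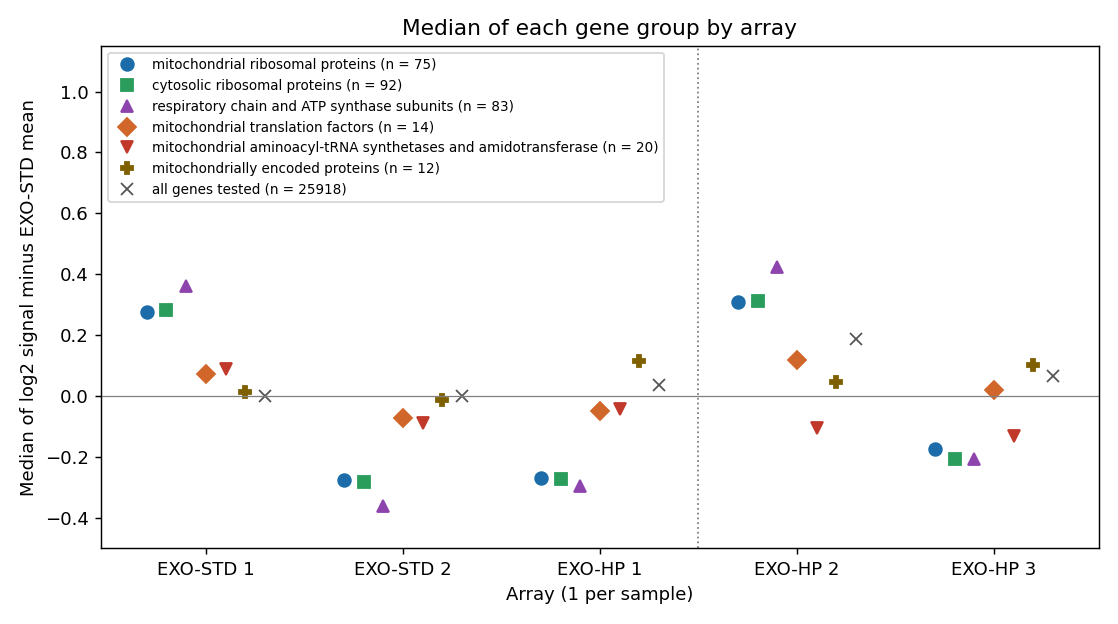
Median over each gene group of the log2 signal minus the gene's EXO-STD mean, for each array; the dotted line divides the slides. Both kinds of ribosomal protein genes and the respiratory chain genes are high on EXO-STD 1 and EXO-HP 2, while mitochondrially encoded proteins range from -0.01 to 0.11 and all genes from -0.0015 to 0.19.

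The mRNAs that this ribosome translates went in both directions over the arrays. Transcripts of the proteins that mitochondrial DNA encodes were measured for 12 of 13, and their median was 0.01 and -0.01 on the EXO-STD arrays and 0.11, 0.04 and 0.10 on the EXO-HP arrays. Between the groups 9 were higher and 3 lower (median 0.09), which median scaling turned to 3 higher and 9 lower (median -0.09), with 0 called. ND6 stood at -0.82 and -0.81, then at -0.44, -0.69 and -0.54 (difference 0.26 ± 0.19), and ND1 at 2.79 and 2.73, then at 2.66, 2.41 and 2.53 (difference -0.23 ± 0.19). Both encode complex I subunits, and in neither did the groups overlap. In all, 4 of the 12 lay higher on every EXO-HP array and 1 lower, where 15.1% and 2.81% of all genes did. Of the 3181 other genes in the members' brightness band, 116 lay higher and 120 lower. The median log2 signal of this list was 15.93, above that band and above all genes (9.01), so neither share is a like measure. ND3, picked after its values were seen, stood at 4.93 and 4.11, then at 4.28, 4.82 and 4.56, high on the same arrays as the family. ND2 ran the other way, at 5.62 and 5.90, then at 5.99, 5.47 and 5.97.

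Genes that serve the mitochondrial ribosome were read from the remaining lists. Of 14 translation factors 6 were higher and 8 lower (median -0.02, turned to 0.02 with normexp correction), and their median on EXO-STD 1 and EXO-STD 2 was 0.07 and -0.07. Tufm, the elongation factor that brings tRNA, differed by 0.16 ± 0.25 and Mrrf, the recycling factor, by 0.22 ± 0.27. Of 25 genes for ribosome assembly and rRNA modification 12 were higher and 13 lower (median -0.0023). Their median on EXO-STD 1 and EXO-STD 2 was 0.12 and -0.12, and 20 of 25 (80%) were higher on EXO-STD 1, where 88% of the members were. Fastkd2, which binds the large ribosomal RNA, stood at -5.55 and -5.12, then at -4.86, -5.01 and -4.92 (difference 0.40 ± 0.22, limma adjusted p = 0.956). Mettl17, an assembly factor of the small subunit, stood at -1.25 and -1.29, then at -1.06, -0.99 and -0.72 (difference 0.34 ± 0.21, limma adjusted p = 0.996). Neither gene overlapped between the groups, and neither passed the test. They were the 2 of 25 with every EXO-HP array higher, which 15.1% of all genes showed, and Tfb1m, an rRNA methyltransferase, was the 1 with every EXO-HP array lower (2.81% of all genes). The median log2 signal of this list was 11.31 against 9.01 over all genes, so these shares are not for genes of like brightness.

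Of 20 mitochondrial aminoacyl-tRNA synthetase and amidotransferase genes, which charge tRNAs, 9 were higher and 11 lower (median -0.02). Tars2, the threonine enzyme, lay lower on all EXO-HP arrays (2.56 and 2.39, then 2.24, 2.32 and 2.22; difference -0.21 ± 0.19), and Yars2, the tyrosine enzyme, differed by -0.28 ± 0.31. Of 14 genes for mitochondrial transcription, replication and RNA stability 6 were higher and 8 lower (median -0.05). Polg2, the accessory subunit of the mitochondrial DNA polymerase, differed by 0.51 ± 0.41 and Tfam, which packages mitochondrial DNA, by -0.28 ± 0.23. Of 8 nuclear regulators tested (of 9 in the list) 1 was higher and 7 lower (median -0.06), with Esrra at -0.37 ± 0.27 and Myc at -0.24 ± 0.20. Among the factors whose motifs were searched, Nrf1 differed by -0.0091 ± 0.19, Yy1 by -0.06 ± 0.21, Gabpa by -0.19 ± 0.32 and Gabpb1 by 0.16 ± 0.22. In these 5 lists 0 genes had an adjusted p under 0.05.

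Markers of other cells were also read on each array. Summed over its 5 genes, the macrophage and adipocyte list was 0.70 and -0.63 on the EXO-STD arrays and -0.0062, 1.00 and 0.09 on the EXO-HP arrays, in the order of the members' medians on the EXO-STD arrays and with EXO-HP 2 highest. That sum was mostly Csf1r, at 0.60 and -0.98, then at -0.22, 0.83 and -0.09, while Adgre1, Cd68, Ptprc and Adipoq lay between -7.38 and -3.81. Gene by gene, the list did not share the EXO-STD order. Only 2 of the 5 genes were higher on EXO-STD 1 than on EXO-STD 2, with a median difference of -0.17. Within EXO-HP, 5 of 5 were highest on EXO-HP 2. Skeletal muscle markers, from the tissue that gave the vesicles, were measured for 9 of 11, and their sum was 0.38 and -0.01, then 0.96, 0.59 and 0.30, which is not the members' order. Of these 9, all were higher in EXO-HP (median 0.51), where 16165 of all 25918 genes were. An unadjusted limma p under 0.05 was reached by 2 of them (Mylpf and Atp2a1), and by 5.85% of all genes. Of the macrophage and adipocyte genes 5 of 5 were higher (median 0.36), of the fibroblast genes 2 of 3 (median 0.75) and of the exocrine and duct genes 3 of 3 (median 0.73), with 0 called in any list. With quantile normalisation 7 of 9 muscle (median 0.19), 3 of 5 macrophage and adipocyte (0.05) and 2 of 3 exocrine and duct genes (0.23) were higher. The fibroblast tally stayed at 2 of 3 (median 0.59). In the deposited values 6 of 9 muscle genes were higher (median 0.14). These 4 lists were dim, with median log2 signals of 5.01 to 7.01 against 9.01 over all genes. The filter asks for 2 arrays of either group, which is every EXO-STD array but not every EXO-HP array. Dim genes could thus enter more easily through EXO-HP, where they are high. The shares over all genes are not for genes of like dimness, so these counts of higher genes are no evidence of a change. The sum of 3 fibroblast markers ran from -3.05 to -2.91 in EXO-STD and from -3.0 to -1.97 in EXO-HP, and that of 3 exocrine and duct markers from -5.26 to -4.32 and from -4.55 to -3.14. Other islet markers, led by Gcg, ran from 5.25 to 5.37 and from 5.02 to 5.53. The samples were labelled as the MIN6 line, and these lists are no count of other cells. Where the signal of these markers came from, and whether it had a part in the members' values, was not tested.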

How the data were processed

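Intensity tables of 5 arrays were read. Per the file headers, spot intensity was extracted with Feature Extraction 10.7.3.1, whereas the submitters' notes on processing list version 9.1 of that program, and limma. The processed signal had its background subtracted and was detrended, and probe positions are in mm9, per the file headers. The deposited log2 values of the whole series had array medians of 8.031 to 8.039 and the ranks of mean signal minus local background (rho = 1). No step is stated for them, and they served as an alternative.

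Outlier spots were left out, log2 was taken, spots of a probe were averaged, and the array's 75th percentile was subtracted. Of 39429 probes, 110 had no usable spot on some array, 7376 were too dim, and 31943 were fitted with limma 3.58.1 (R 4.3.3; group only, all 5 arrays). Adjusted p-values run over all of them. Gene symbols were updated through RefSeq (GRCm38.p6) for 26055 probes. Mrpl42, listed on the array under an older name, was outside the name rule.

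The members, gene lists and tests were chosen with earlier results of these data known. Genes named are, per subunit, the 4 highest and 4 lowest differences, up to 6 members each way with the smallest p, the 3 brightest and 3 dimmest probes, members not measured in a group, those whose names misplace them or fall outside the rule, the 2 smallest p of each list, and the 5 genes most like the family. Members closest to the family's median, furthest from it, or used for the promoters were added with their values known. Simulated data (5 sets with 200 changed probes each) were used to test the limma step. Precision is limited by the number of arrays.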

Additional observations from a re-analysis of the deposited data

How the results depend on the processing

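The count of called probes was 0 under all alternatives except one: it ran from 0 to 3 when single arrays were left out, and the 3 (smallest adjusted p = 0.0298, limma) came without EXO-STD 1 and held no member. Members called were 0 throughout, and members with an unadjusted p under 0.05 numbered 0 to 2. The large minus small subunit difference of -0.0031 was -0.07 with the slide as a block (-0.0662 before rounding), which is EXO-HP 1 alone against both EXO-STD arrays, and -0.02 with subunits by structure. It ran from -0.06 to 0.03 when single arrays were left out. The family's median was -0.02 with quantile normalisation, -0.04 with normexp correction and -0.03 in the authors' deposited values. Among 1124 values of single members under alternatives, 32 moved by more than the SD within groups, 12 of them with the slide as a block and 8 with median scaling.

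The replicate numbers 1 and 2 occur in both groups, but the labels do not say that they pair samples, and deviations of same-numbered arrays had correlations of 0.02 and -0.05. With the replicate block the family's median was 0.0156, with 42 genes higher and 33 lower and 0 probes called. EXO-HP 3 has no partner and drops out of that contrast. The cause of these shifts was not tested. One probe per gene on few arrays limits what can be seen: only Mrpl21 lacked a signal well above background in a group.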

Other observations

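Split into equal parts by gene length after the values were seen, the 25 shortest members (825 to 5227 bases) differed between EXO-STD 1 and EXO-STD 2 by a median of 0.65, the 25 in the middle by 0.49 and the 25 longest (9538 to 121712 bases) by 0.43. Between EXO-HP and EXO-STD the medians were 0.0040, -0.09 and -0.04 in turn. These are values of the same 5 arrays, given without a test.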
